A study of Mus musculus with 4 samples.

Results

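AP-1 is a transcription factor made of paired bZIP proteins, in which a Fos protein joins a Jun protein or Jun proteins join each other, and the pair binds short DNA sites near genes of growth, matrix turnover and stress. *Fos*, *Jun* and the other immediate early genes are switched on within minutes of a signal, through kinase cascades that act on factors such as Srf and Creb already bound at their promoters, and no new protein is needed for this. The RNA of the classical ones is short-lived, so a steady-state measurement reflects signals shortly before lysis. This need not hold for genes with lasting expression, such as *Jund* and *Fosl2* below. In the heart and in cultured cardiomyocytes these genes are known for their answer to stretch and to growth signals.

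The 10 genes described here are the Fos family (*Fos*, *Fosb*, *Fosl1*, *Fosl2*), the Jun family (*Jun*, *Junb*, *Jund*) and 3 other immediate early genes (*Egr1*, *Atf3*, *Ier2*). They were chosen by name, and all 10 were found, once each, among 24637 genes. Messenger RNA was sequenced from 4 libraries of mouse embryonic stem cells (ESCs) taken towards cardiomyocytes, 2 labelled WT (Taf4+/+) and 2 labelled Taf4a-/- (genotype Taf4-/-). The lines were derived from blastocysts of crosses between Taf4a heterozygous C57Bl6J mice, the deleted allele lacks exons 11 and 12, and each library stands for 1 line. All lines were kept on feeder fibroblasts, grown for 5 days as embryoid bodies in medium with 20% serum and then for 9 days on gelatin-coated plates, and the labels call the cells cardiac in both genotypes. The serum was shared by all groups, and the time since the last medium change is not given in the sources used here.

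Between 21732746 and 27733034 reads per library were counted on genes. Pairs of values are given below with replicate 1 first. *Taf4a*, the targeted gene, was read at 889 and 678 normalized counts in WT but at 1722 and 1799 in the libraries labelled Taf4a-/-, and this gene-level count does not separate the deleted exons. Its paralogue *Taf4b* was at 263 and 162 against 534 and 534, so genotype below means the label given to a library. *Eif2s3y*, a Y-linked gene, was read in replicate 1 of both genotypes (1688 normalized counts for WT, 309 for the library labelled Taf4a-/-) and was at 0 in replicate 2 of both. *Xist* was at 6.14 and 7.27 in WT and at 217 and 6470.0 in the libraries labelled Taf4a-/-, so the lines also differed in sex-linked RNA. Markers of other cells moved with the genotype. All 15 macrophage markers fell, and their summed normalized counts were 16954 and 21604 in WT against 345 and 720.0 in the libraries labelled Taf4a-/-, where *C1qa* was listed at 0 in both. *Csf1r*, the receptor that defines macrophages, was at 2825 and 3159 against 36.2 and 47.6. All 14 cardiomyocyte markers fell, from sums of 34126 and 32131.5 to 4172 and 3405, and *Actc1*, cardiac actin, from 7519 and 6901 to 227 and 399, so the labelled cell type was weakly marked in the libraries labelled Taf4a-/-. Of 14 fibroblast and matrix markers 10 fell, with sums of 555857 and 803983 against 205067 and 229228, and 10 of 12 pluripotency markers rose, with sums of 7587 and 4163 against 21200.4 and 23262. In such bulk cultures fewer cells of a type and less RNA per cell cannot be told apart, and the part of these cells in the values below was not tested.

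Promoters of 7 of the 10 genes were found in a RefSeq table of the build GRCm38.p6, and *Fosl1*, *Egr1* and *Ier2* were not matched. The last 120 bases before the transcription start are shown for 4 of them. *Fos* and *Jun* were taken because they carry the classical elements of signal-induced promoters. *Fosb* and *Fosl2* were taken because their RNA lay on opposite sides of WT in the libraries labelled Taf4a-/-, though neither difference passed the test below. Capitals mark the motif letters found on either strand, and no marked motif overlapped another in these windows.
*Fos* (chr12:85473770-85473889, plus strand): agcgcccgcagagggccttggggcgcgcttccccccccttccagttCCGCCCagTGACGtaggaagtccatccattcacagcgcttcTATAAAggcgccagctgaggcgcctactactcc
*Jun* (chr4:95052223-95052342, minus strand): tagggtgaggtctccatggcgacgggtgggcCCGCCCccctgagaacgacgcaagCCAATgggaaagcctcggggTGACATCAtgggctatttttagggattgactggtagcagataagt
*Fosb* (chr7:19310046-19310165, minus strand): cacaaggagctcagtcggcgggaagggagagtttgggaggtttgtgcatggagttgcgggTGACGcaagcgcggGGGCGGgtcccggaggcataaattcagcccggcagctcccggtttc
*Fosl2* (chr5:32136352-32136471, plus strand): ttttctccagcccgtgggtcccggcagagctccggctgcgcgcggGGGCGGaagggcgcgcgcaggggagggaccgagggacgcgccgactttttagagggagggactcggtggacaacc

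The motifs were searched on both strands of the 250 bases before the start in the 7 promoters and in all 32851 promoters of the table. TGACG, the core of the site bound by Creb and Atf proteins, was found in *Fos*, *Fosb*, *Junb* and *Atf3*, and in 17.8% of all promoters. TGACNTCA, the longer form bound by Jun and Atf2 pairs, was found in *Jun* and in 7.49% of all promoters. The Sp1 motif GGGCGG was found in *Fos*, *Fosb*, *Fosl2*, *Jun* and *Atf3* (32.7% of all promoters), CCAAT in *Jun* and *Junb* (33.8%), and TATAAA in *Fos* (12.4%). The CArG box of Srf (1.47% of all promoters) and the Egr site GCGTGGGCG (0.536%) had no match in the 7 windows. Nor had TGANTCA (6.75%), an AP-1 motif searched with any base at N. Bases farther upstream were not searched, so this does not show that these genes lack such sites. *Jund* had a match to none of the 8 motifs. Its window was 47.6% G or C, against a median of 52.4% for all promoters. The windows of the other members found were richer, from 58.4% (*Fos*) to 68.8% (*Fosb*). The shares over all promoters were not matched for this, so they do not show whether a motif is enriched in the members. These matches are letters in a window and not measured sites.

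The genotypes were compared for each of the 10 genes. *Jund* and *Ier2* rose in the libraries labelled Taf4a-/-, each by less than 2-fold. In the main limma fit and in the voom fit 0 members fell past the threshold. In both fits 1 member, *Fosl2*, was lower at an unadjusted p-value under 0.05. Of 9 members whose mean reached 10 normalized counts, 2 were called, which is 22.2%, at an adjusted p-value under 0.05 (limma on log2(normalized counts + 1), adjusted by the Benjamini-Hochberg method over 16926 genes). In the same test 28.6% of all genes tested were called, 11.3% higher and 17.3% lower, so the share of members called was near the background. The median log2 fold change was -0.11 for the 9 members and -0.01 for all genes tested, and 0.072 and 0.11 with quantile normalization. The median size of the change, in either direction, was 0.31 for the members and 0.42 for all genes. None of the 9 members differed by 2-fold or more in this fit, against 20.7% of all genes tested, though *Fosb* and *Fosl2* did in some alternatives. In 6 of the 9 members the 95% interval of the difference lay within a 2-fold change either way, as it did for 8851 of the 16926 genes.

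**Figure D1:**
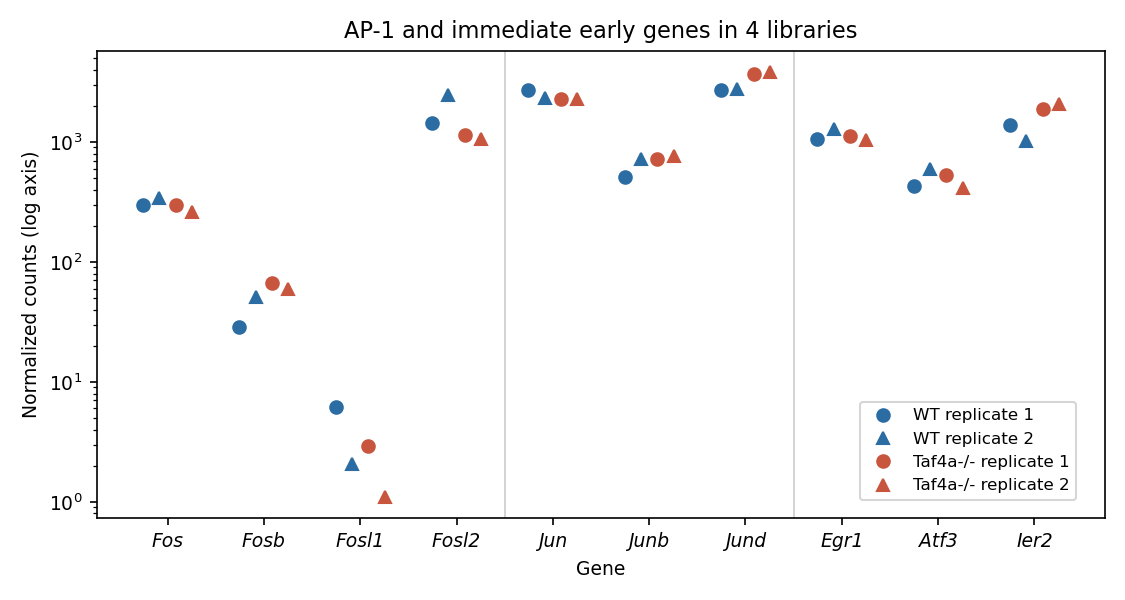
Normalized counts of the 10 genes (log axis) in each of the 4 libraries, blue for WT and red for the libraries labelled Taf4a-/-, with circles for replicate 1 and triangles for replicate 2; vertical lines part the Fos family, the Jun family and the other genes. The red points lie above the blue for *Fosb*, *Junb*, *Jund* and *Ier2*, below them for *Fosl2* and *Jun*, and among them for *Fos*, *Egr1*, *Atf3* and the scarcely read *Fosl1*.

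Among the Jun proteins, which can pair with each other as well as with Fos proteins, *Jund* had the clearest difference. *Jund*, the Jun gene that is expressed in most resting cells (ENSMUSG00000071076, chromosome 8 from 73221638 to 73224515, plus strand, a single exon in NCBIM37), had 2711 and 2759.7 normalized counts in WT. In the libraries labelled Taf4a-/- it had 3670.0 and 3829. The 2 WT libraries lay close together and both others lay above them. The means were 2735 ± 34.6 and 3749 ± 112 (SD, n = 2 each). This is 0.45 on the log2 scale, with a standard error of 0.11 and an adjusted p of 0.0278 in limma. With the replicate number as a block the adjusted p-value from limma was 0.0553, with no variance trend it was 0.0929, and it was between 0.0330 and 0.233 when 1 library was left out, with the fold change between 0.42 and 0.49. The call was lost in the fits without WT replicate 2 (adjusted p = 0.0517), Taf4a-/- replicate 1 (0.177) and Taf4a-/- replicate 2 (0.233), each from limma. An annotated gene on the other strand, *Gm11175*, covers 18.9% of the *Jund* exon, and the library kit does not mark strand.

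*Jun*, the founding member and a strong transactivator, had 2722 and 2338 normalized counts in WT, and 2287 and 2299 in the libraries labelled Taf4a-/-. Its WT libraries differed more from each other than the genotypes did, although both other libraries lay below them. The log2 fold change was -0.14, with a 95% interval from -0.44 to 0.17 (adjusted p = 0.436 from limma). *BC042782*, on the other strand, shares 232 nt (7.28%) of the *Jun* exon and had 10.5 and 23.9 normalized counts in WT against 67.5 and 78.5. *Junb*, which is induced early and can restrain Jun, had 508 and 721 normalized counts in WT, and 727 and 769.8 in the libraries labelled Taf4a-/-. WT replicate 1 stood low, and WT replicate 2 was close to both others. The log2 fold change of *Junb* was 0.31, with a standard error of 0.20 and an adjusted p of 0.281 in limma, and it was 0.053 without WT replicate 1.

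Among the Fos proteins, which cannot pair with each other and need a Jun partner, no gene passed the threshold. *Fos*, the classical immediate early gene, had 298 and 339 normalized counts in WT, and 299.5 and 262 in the libraries labelled Taf4a-/-. The genotypes overlapped. Its log2 fold change was -0.18 with a 95% interval from -0.63 to 0.27 (adjusted p = 0.494 from limma), and the sign was turned by quantile normalization (0.072, where the median of all genes was 0.11). *Fosb*, its inducible paralogue, was scarce, with 28.9 and 50.9 normalized counts in WT and 66.6 and 59.7 in the libraries labelled Taf4a-/-. These rest on 33, 49, 68 and 54 reads, and both of the latter lay above WT. The log2 fold change was 0.70, with a standard error of 0.38 and an adjusted p of 0.213 in limma. It ranged from 0.30 without WT replicate 1 to 1.10 without WT replicate 2, and was 1.03 with quantile normalization.

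*Fosl2*, a Fos gene with sustained expression and known roles in bone and in tissue matrix (ENSMUSG00000029135, chromosome 5 from 32438845 to 32460204, plus strand, 4 exons in NCBIM37), had 1441 and 2474 normalized counts in WT. It had 1151 and 1048 in the libraries labelled Taf4a-/-. Both lay below WT, but the WT libraries differed by 0.78 on the log2 scale. The median size of the difference between them, in either direction, was 0.26 over all genes tested. The log2 fold change was also -0.78 (standard error 0.25), with a 95% interval from -1.39 to -0.17, which limma did not call (adjusted p = 0.0630). It was -1.17 and passed without WT replicate 1 (adjusted p = 0.0157), and was -0.39 without WT replicate 2 (adjusted p = 0.0966, both from limma). Between the WT libraries the summed matrix and macrophage markers were also higher in replicate 2, the summed pluripotency markers were lower, and Y-linked RNA differed as given above, and their part in this spread was not tested. *Fosl1*, a Fos gene of migrating and transformed cells, was near the limit of detection, with 7 and 2 reads in WT and 3 and 1 in the libraries labelled Taf4a-/-. It was not tested, and 68.1% of its exons are shared with *Ccdc85b* on the other strand, which had between 335 and 537 normalized counts.

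**Figure D2:**
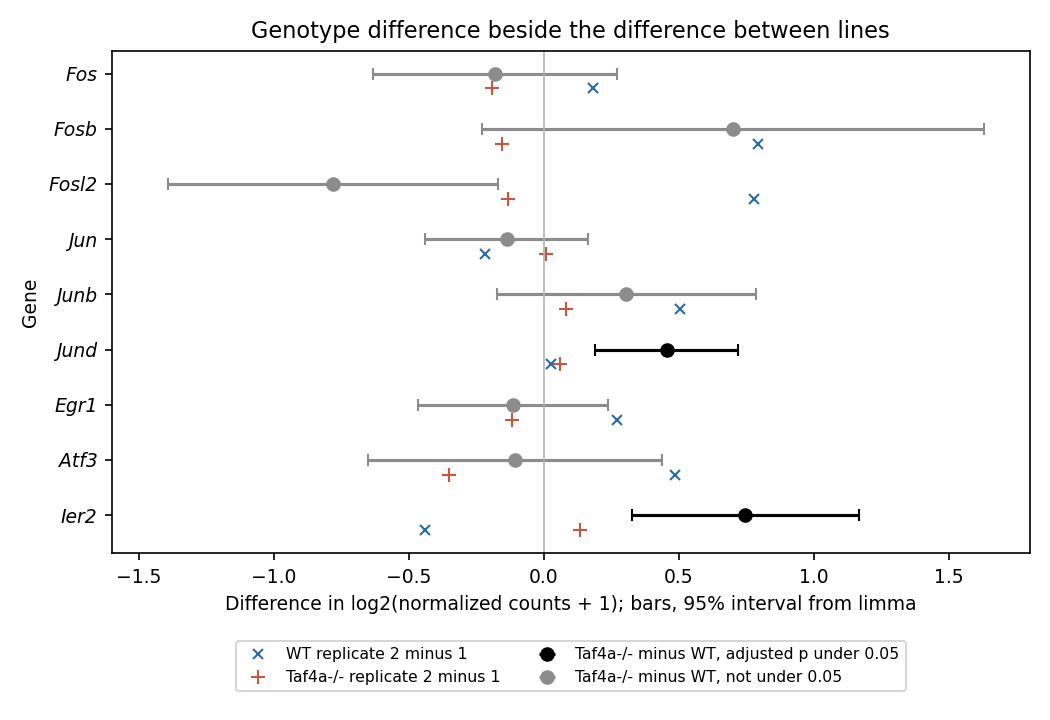
Difference in log2(normalized counts + 1) for the 9 genes tested: points are Taf4a-/- minus WT with 95% intervals from limma, black where the adjusted p-value was under 0.05, and the crosses below each point are replicate 2 minus replicate 1 within WT (blue) and within the libraries labelled Taf4a-/- (red). *Jund* and *Ier2* have a point farther from 0 than both of their crosses, and the point of *Fosl2* is about as far as its WT cross.

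The 3 remaining genes encode proteins of other kinds. *Ier2*, a short nuclear protein induced by growth factors (ENSMUSG00000053560, chromosome 8 from 87185230 to 87186751, minus strand, a single exon in NCBIM37), had 1379.9 and 1017 normalized counts in WT. It had 1898 and 2084 in the libraries labelled Taf4a-/-, both above WT. The means were 1199 ± 256 and 1991 ± 131 (SD, n = 2 each). The difference was 0.75 on the log2 scale, with a standard error of 0.17 and an adjusted p of 0.0253 in limma. Without WT replicate 2 it was 0.53 (adjusted p = 0.0582). Without Taf4a-/- replicate 1 or 2 the adjusted p-values from limma were 0.0524 and 0.0993, so each of these libraries was needed for the call. With no variance trend the adjusted p-value from limma was 0.0851.

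*Egr1*, a zinc finger factor induced through Srf, had 1059.9 and 1278 normalized counts in WT, and 1119.9 and 1031 in the libraries labelled Taf4a-/-. The genotypes overlapped, and the log2 fold change was -0.12 with a 95% interval from -0.47 to 0.24 (adjusted p = 0.576 from limma). *Atf3*, a bZIP protein of stressed cells that can pair with Jun proteins, had 425 and 595 normalized counts in WT, and 528 and 414 in the libraries labelled Taf4a-/-. Here too they overlapped, with a log2 fold change of -0.11 and an interval from -0.65 to 0.44 (adjusted p = 0.745 from limma). The signs of both turned in some settings, to 0.02 for *Egr1* without WT replicate 2 and to 0.047 for *Atf3* with quantile normalization.

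Across the members, 6 of 9 (66.7%) had libraries that did not overlap between the genotypes, and 71.1% of all genes tested did the same. They lay above WT in 4 members and below it in 2, against 34.5% and 36.6% of all genes. With 2 libraries against 2 the smallest two-sided p-value of an exact permutation test is 0.333, so single values cannot be tested by permutation here. The WT lines differed more than the others in 7 of the 9 members. The median size of the log2 difference between lines, in either direction, was 0.44 within WT for the members. It was 0.13 within the libraries labelled Taf4a-/-, and 0.26 and 0.16 for all genes tested. WT replicate 2 was above WT replicate 1 in 7 of the 9. The difference between genotypes was larger than both differences between lines in 3 members, clearly so in *Jund* and *Ier2*, while in *Fosl2* it equalled the difference between the WT lines to 2 decimals (0.78). The counts of 7 and 3 members were not made over all genes, so they cannot set the members apart. Over all genes tested the median size of the genotype difference was 0.42, above the 0.26 and 0.16 between lines.

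Levels of different genes were compared per length, as normalized counts per kb of annotated exon. *Jund* had the highest level among the 10 genes, with a mean of 1127 per kb over the 4 libraries, above 92.3% of all genes tested. *Ier2* followed at 1048 and *Jun* at 756 per kb. *Ier2* and *Jund* lay at 907 and 942 per kb in WT replicate 1 and in the reverse order in the library labelled Taf4a-/- replicate 2, at 1369 and 1330.4. *Junb* (377), *Egr1* (362), *Fosl2* (261) and *Atf3* (247) formed a middle range, and their order changed between libraries. *Fos* had 127 per kb, above 44.8% of genes, and *Fosb* 13.7, above 12.4%. *Jund* and *Jun* lay above *Fos* and *Fosb* in every library.

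The make-up of each family was then given as shares within a library, which no scaling between libraries can change. *Jund* made up 45.4% and 45.9% of the Jun family's counts per kb in WT, and 53.2% and 53.7% in the libraries labelled Taf4a-/-. *Jun* made up 41.1% and 35.1% against 29.9% and 29.1%. The ratio of *Jund* to *Jun* was therefore 1.10 and 1.31 in WT and 1.78 and 1.85 in the others, and the genotypes did not overlap. In the Fos family, *Fosl2* made up 64.1% and 72.7% in WT against 57.2% and 58.3%, and *Fos* 33.0% and 24.8% against 37.1% and 36.3%. *Fosb* made up 2.01% and 2.33% in WT and 5.17% and 5.18% in the libraries labelled Taf4a-/-. These shares were not tested, and as parts of a sum they do not move independently. Jun family RNA exceeded Fos family RNA in all 4 libraries, with a ratio per kb of 5.40 and 3.60 in WT and 6.97 and 8.07 in the others.

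**Figure D3:**
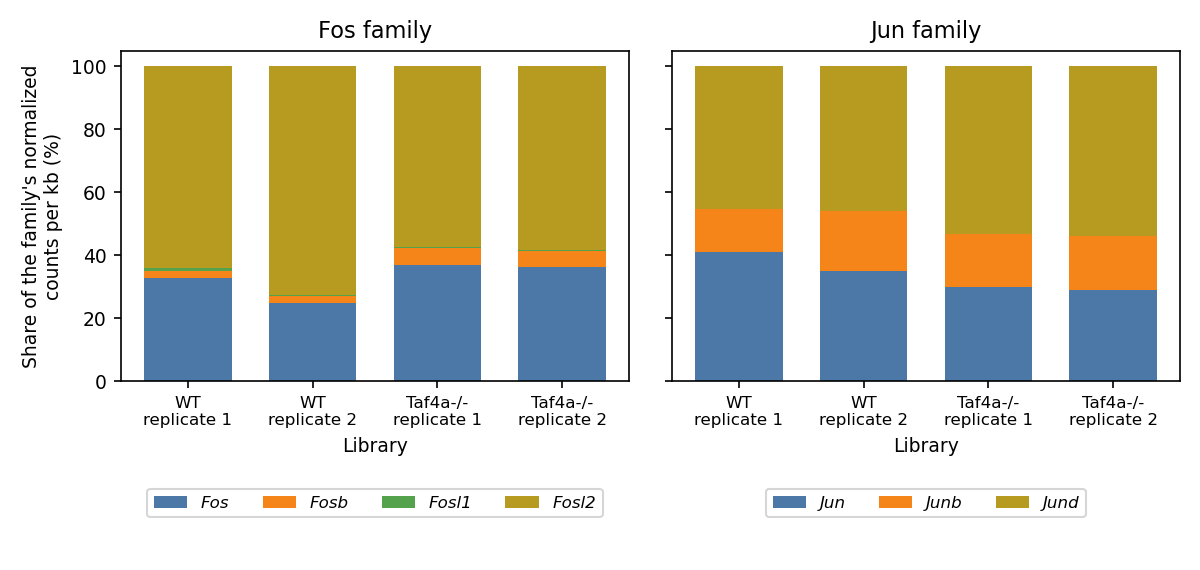
Share of each gene in its family's summed normalized counts per kb (%), in the Fos family (left) and the Jun family (right), with a bar for each of the 4 libraries. *Jund* takes 45.4% and 45.9% of the Jun family in WT and 53.2% and 53.7% in the libraries labelled Taf4a-/-, and *Fosl2* is the largest part of the Fos family in every bar.

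The other genes of the pathway were described with lists written by function, with earlier results of these data known. The shares called in these lists are therefore descriptions and not independent tests. Of 30 upstream kinases and Srf or Creb factors, all tested, 0 rose and 4 fell, with a median log2 fold change of 0.03. This is 13.3% called, against 28.6% of all genes tested. At an unadjusted p-value under 0.05, 4 were higher and 6 lower, and voom also called 0 higher. Without WT replicate 1, 3 were called higher and 4 lower. The genes that fell furthest were *Myocd*, the cardiac and smooth muscle coactivator of Srf (428 and 431 against 143 and 114 normalized counts, log2 fold change -1.74), *Rps6ka4*, a kinase that acts on Creb and on chromatin (-1.42), and *Mapk13*, a p38 kinase (-1.23). The fourth was *Mapk3*, which encodes Erk1 (-0.75). *Srf* itself had 2239.99 and 2185 normalized counts in WT and 1812 and 1697 in the others (-0.34, adjusted p = 0.0710 from limma).

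Of 39 other immediate early genes tested, 5 rose and 4 fell, or 23.1% against 28.6% of all genes tested, with a median of 0.04. The counts higher and lower were 7 and 9 without WT replicate 1, 3 and 2 without WT replicate 2, 1 and 4 without Taf4a-/- replicate 1, 2 and 3 without Taf4a-/- replicate 2, and 2 and 3 with no variance trend. *Klf2*, a zinc finger gene of flow-exposed endothelium that pluripotent cells also express, rose from 265 and 259 normalized counts to 1292 and 1323 (log2 fold change 2.32, standard error 0.14, adjusted p = 0.000809 from limma). *Sphk1*, which makes sphingosine 1-phosphate, fell from 67.5 and 139 to 27.4 and 18.8 (-2.05). *Rgs2*, a brake on G protein signals, fell from 350 and 301 to 75.4 and 106 (-1.85). Of the Egr family, singled out after the values were seen because *Egr1* did not pass, *Egr2*, a gene also induced in macrophages, fell from 50.8 and 52.0 to 18.6 and 11.1 (-1.77, adjusted p = 0.0263 from limma). *Egr3* was at 17.5 and 13.5 against 24.5 and 15.5, and *Egr4* was too low to test.

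Of 14 other AP-1 and bZIP partners tested 2 rose and 2 fell (28.6%, the same share as among all genes tested), with a median of -0.29. Without WT replicate 1 the counts were 2 and 4, without WT replicate 2 they were 2 and 1, and they were 1 and 1 without either Taf4a-/- replicate and with no variance trend. *Maf*, which encodes a large Maf protein abundant in macrophages, fell from 2146 and 2564 normalized counts to 516 and 538 (log2 fold change -2.15). *Mafa* rose from 2.63 and 2.08 to 35.2 and 52.0, and since its WT values lie at or under the floor of 3 reads, the fitted log2 fold change of 3.71 depends on the pseudocount. *Atf2*, a partner of Jun on the TGACNTCA site, rose by 0.52 and *Atf4*, the stress response factor, fell by 0.43 on the log2 scale.

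Of 16 feedback inhibitors tested 4 rose and 1 fell (31.2%), with a median of -0.05. This share was near the 28.6% called among all genes tested. The 4 that rose encode phosphatases that switch off MAP kinases, and they are 4 of the 9 Dusp genes of the list. The other 5 did not pass, and *Dusp16* was at -0.42 (adjusted p = 0.0553 from limma). Of the list 1 was called higher with no variance trend, 1 without Taf4a-/- replicate 1 and 0 without Taf4a-/- replicate 2, while 3 were called lower without WT replicate 1. *Dusp4* rose by 0.94 on the log2 scale (2202 and 1242 against 3177 and 3176 normalized counts), *Dusp6* by 0.83, and *Dusp5* and *Dusp1*, both immediate early genes too, by 0.74 and 0.68. *Nab1*, a corepressor of Egr proteins, fell from 1759.6 and 2468 to 1042 and 1087 (-0.97), and *Nab2*, which Egr1 induces, was at 602 and 686 against 756 and 787 (0.26, adjusted p = 0.209 from limma).

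Of 19 textbook AP-1 targets tested, 0 rose and 9 fell, or 47.4%, with a median of -0.69. Among all genes tested 28.6% were called, 17.3% were lower and the median was -0.01. The list was written with earlier results known, so its larger share of falls is no independent test of AP-1 activity. At an unadjusted p-value under 0.05, 1 was higher and 10 lower, and voom called 0 higher and 9 lower. With 1 library left out 6 to 11 were lower, and 6 with no variance trend. The falls were those of *Mmp12*, a macrophage elastase (61.4 and 93.5 against 0.979 and 7.74 normalized counts, log2 fold change -4.21), *Lgals3* (galectin 3, -2.47), *Plau* (urokinase, -1.69), *Mmp9*, *Axl*, *Mmp14*, *Plaur*, *Mmp2* and *Tgfb1*. The *Mmp12* value of 0.979 lies under the floor of 3 reads, so its fitted log2 fold change depends on the pseudocount. Several of the genes that fell are made mainly by macrophages or matrix-forming cells, whose markers fell in the same libraries. The part of those cells was not tested. Others did not pass, such as *Ccnd1*, the cyclin of the first growth phase (0.27, adjusted p = 0.111), *Hmox1* (-0.30, adjusted p = 0.146) and *Vim* (-0.06, adjusted p = 0.787, all from limma).

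Because *Atf3* also belongs to the integrated stress response, 17 genes of that response were listed, and 0 rose and 7 fell (41.2%), with a median of -0.83. Among all genes tested 28.6% were called and 17.3% were lower, and this list too was written with earlier results known. None of the 17 was higher at an unadjusted p-value under 0.05 in the main fit, while voom had 1. After adjustment voom called 0 higher and 5 lower. *Asns* (0.43), *Sesn2* (0.34) and *Ddit4* (0.24) lay above WT in both libraries labelled Taf4a-/- without being called. Without WT replicate 1 the median was -0.48, and 2 genes were higher and 7 lower, and 4 were lower without WT replicate 2 and with no variance trend. *Nupr1*, a stress-induced chromatin protein, fell from 133 and 321 normalized counts to 25.5 and 46.5 (-2.55), *Cebpb*, a bZIP factor of liver and myeloid cells, from 433 and 480.0 to 125 and 138 (-1.78), and *Trib3*, a target of Atf4, from 487 and 432 to 158 and 211 (-1.33). *Ppp1r15a*, which reverses the response, was at 772 and 785.5 against 815 and 860.5 (0.11, adjusted p = 0.565 from limma). Of 13 heat shock genes 3 rose and 0 fell (23.1%), with a median of 0.23, while 1 was lower at an unadjusted p-value under 0.05 and 0 in voom. Without WT replicate 1, 5 were higher and 1 lower, and without Taf4a-/- replicate 2, 2 were higher. *Hsph1*, *Hsp90aa1* and *Dnaja1*, chaperones of the cytosol, rose by 1.00, 0.83 and 0.73 on the log2 scale, while the strictly inducible *Hspa1b* was at 82.4 and 133 against 93.0 and 89.6 (-0.20, adjusted p = 0.666 from limma).

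**Figure D4:**
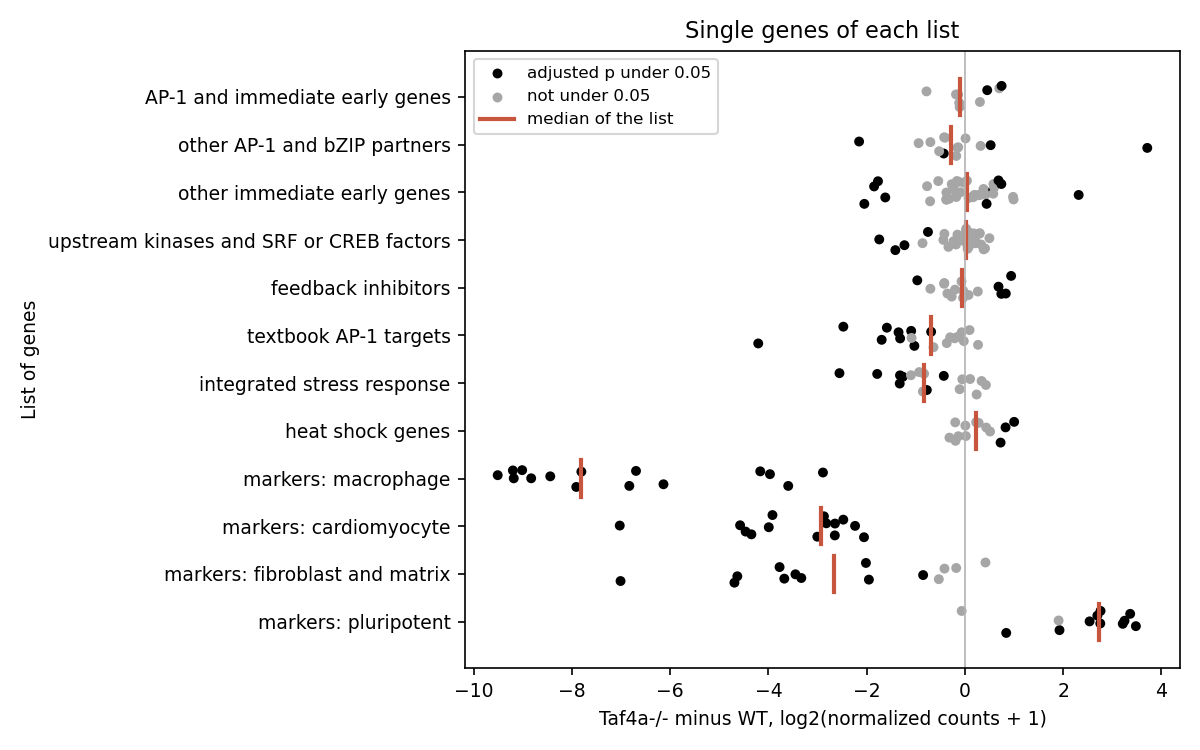
Change of each tested gene, Taf4a-/- minus WT in log2(normalized counts + 1), for the 10 listed genes, the pathway lists and 4 lists of cell type markers; black points had an adjusted p-value under 0.05 and red bars are list medians. The AP-1 and immediate early genes lie between -0.78 and 0.75, and the macrophage markers have a median of -7.81.

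The same lists were set beside the marker lists of the cultures. The medians of the macrophage, cardiomyocyte, fibroblast and matrix, and visceral endoderm and liver markers were -7.81, -2.94, -2.67 and -6.24, and that of the pluripotency markers was 2.73. The macrophage and liver medians depend on the pseudocount, since some of these markers are at 0 or at few reads in the libraries labelled Taf4a-/-, and they were -5.86 and -4.95 with a pseudocount of 10. No marker of the endothelial (10 tested), erythroid (8) or neural (6) lists was called by limma or by voom, and 3, 0 and 0 had an unadjusted p-value under 0.05. These counts of 0 depended on single libraries. Without Taf4a-/- replicate 1, 4 erythroid markers were called higher (median 1.22), and without Taf4a-/- replicate 2, 1 erythroid (median -0.62) and 3 endothelial markers were called lower. Without WT replicate 2, 1 neural marker was called lower. The medians of the 3 lists in all libraries were -0.27, 0.41 and 0.28, and the summed erythroid markers ranged from 2268 to 16194 over the 4 libraries. The summed normalized counts of the 10 AP-1 and immediate early genes were 10580.1 and 11575 in WT and 11749.9 and 11797.5 in the libraries labelled Taf4a-/-.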

How the data were processed

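RNA of 2 WT and 2 Taf4a-/- lines was sequenced after poly(A) selection. The authors mapped reads to mm9/NCBI37 with TopHat (1.3.3 in the submitters' processing notes, with HTSeq 0.5.3p1 as counter) and deposited counts per gene divided by 1 size factor per library from DESeq 2. Every value came out within 0.01 of a whole multiple of the value of 1 read, which ranged from 0.877 to 1.11 normalized counts. The floor was set at 3 reads and covers counting error only.

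The test was limma 3.58.1 (R 4.3.3, variance trend, prior of 4.17 degrees of freedom) on 16926 genes whose mean reached 10, with a pseudocount of 1, and called at an adjusted p-value under 0.05. The test was tried on simulated data. P-values rest on the spread between the lines sampled, with much of each gene's variance drawn from other genes through the prior and the trend. Exon lengths and positions are from GENCODE vM1 on NCBIM37. The members and lists were chosen with earlier results of these data known. Genes named are the 10 members, *Taf4a*, *Taf4b*, the 3 called genes of each pathway list with the largest changes and no overlap, leading markers, and genes named for contrast after their values were seen.

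The same-numbered libraries deviated with a correlation of 0.012, and no text pairs them, although Y-linked RNA was read in replicate 1 and not in replicate 2 of both genotypes, so the replicate block was an alternative. Others were pseudocounts, filters, scalings, no variance trend and leaving out a library. The count tests and TMM scaling were not run, and limma's voom was added after seeing the data.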

Additional observations from a re-analysis of the deposited data

How the results depend on the processing

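Leaving out a library leaves a lone one, which limma then takes to vary like the others. *Jund* and *Ier2* stayed higher than WT in all 13 alternatives, *Jund* from 0.42 to 0.51 and *Ier2* from 0.53 to 0.97 on the log2 scale, and their adjusted p-values reached 0.233 and 0.0993. The members called higher, 2 in all, were 1 with the replicate block (*Ier2*), 0 with no variance trend, and 0 to 2 with 1 library left out. Members called lower were 0 in all settings except without WT replicate 1, where *Fosl2* made them 1, and the range with 1 library left out was 0 to 1. Signs turned for *Fos* (0.072) and *Atf3* (0.047) with quantile normalization, for *Egr1* (0.020) and *Atf3* (0.14) without WT replicate 2, and for *Atf3* (0.068) without Taf4a-/- replicate 2. With 1 library left out *Egr1* ranged from -0.25 to 0.020 and *Atf3* from -0.35 to 0.14. The cause was not tested.

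Over all genes, limma called 1906 higher and 2928 lower. Without the variance trend the numbers fell to 856 and 1741, and they were 1536 and 2657 with the replicate block, and 624 to 2476 and 1222 to 3038 with 1 library left out. Of the called genes 39.4% were higher. Quantile normalization made this 52.2% and shifted the median over all genes from -0.01 to 0.11, and it was 23.9% and 24.5% without Taf4a-/- replicates 1 and 2. The edgeR, DESeq2 and TMM alternatives were not run, since the decimal commas of the table kept its unit from being checked as counts. The 4 libraries limit changes of under 2-fold, and *Fosl1* could not be compared at this depth.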
